A study of Mus musculus with 9 samples.

Results

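The L1Md subfamilies are a set of mouse LINE-1 elements, taken here as every row of the deposited repeat counts whose name starts with L1Md. There were 6 such rows among 1146 repeat subfamilies: L1Md_A, L1Md_T, L1Md_Gf, L1Md_F, L1Md_F2 and L1Md_F3. All 6 passed the filter on low counts, which left 984 repeat subfamilies for testing. The table held 125 other LINE-1 rows, called older LINE-1 here.

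The libraries came from hindlimb muscle of mice 9 weeks old, from which satellite cells, the muscle's stem cells, were isolated. The Mutant mice lacked Uhrf1 in satellite cells and received tamoxifen, and the Control mice received oil. Per the labels' protocols, tamoxifen was given intraperitoneally as 150 µl of a 20 mg/ml solution on 5 days, and cells of both groups grew for 3 days in culture after seeding at 5000 cells/cm2. Each group had 3 libraries, prepared from total RNA depleted of ribosomal RNA with a kit that keeps strand, and read from both ends. A group called Cre Control, also given tamoxifen, is not analysed here. The labels name neither the Cre driver nor the alleles, and they do not say that libraries came from separate animals. The p-values therefore measure the spread between libraries, which may be technical. Since Control mice received oil, tamoxifen treatment and Uhrf1 loss cannot be told apart.

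LINE-1 elements are retrotransposons without long terminal repeats that copy themselves through RNA. A full-length element encodes ORF1p, an RNA-binding protein, and ORF2p, which carries endonuclease and reverse transcriptase activity. Mouse L1Md elements are transcribed from a promoter built of repeated units called monomers, whose type differs between some subfamilies. The A, T and Gf subfamilies are young and hold the copies still able to move, whereas the F subfamilies are older. In somatic cells CpG methylation of the promoter is a main form of LINE-1 silencing. Uhrf1 binds hemimethylated DNA after replication and recruits the maintenance methyltransferase Dnmt1, so the comparison addresses whether LINE-1 transcripts differ when Uhrf1 is lost.

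With counts scaled by TMM factors, described below, no L1Md subfamily differed between Mutant and Control beyond the spread between libraries. With all 6 libraries the largest estimated difference was 7.72%, for L1Md_F, and the widest 95% interval was −20.6% to 16.3%, for L1Md_Gf. Without the library labelled Control 3, which stands apart from its group, the largest was −10.8%, for L1Md_Gf. In edgeR's quasi-likelihood test on counts scaled with TMM factors, which are chosen so that most subfamilies show no difference, 0 of 6 L1Md subfamilies had an adjusted p below 0.05, and 0 had an unadjusted p below 0.05. The same fit called 0% of the 984 subfamilies tested, and 111 had an unadjusted p below 0.05. DESeq2 on the same libraries called 0 of 6 L1Md subfamilies and 16 of 792 subfamilies with an adjusted p (2.02%). Scaled by total counts only and without the library labelled Control 3, edgeR called 5 of 6 lower in Mutant, beside 40.3% of 994 subfamilies. In bulk RNA, fewer cells of a type and less RNA per cell cannot be told apart, and repeat counts alone do not give a level relative to all RNA.

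The number of other repeats called varied with whether 1 library was kept, and also with method and scaling. Intracisternal A particles (IAP), endogenous retroviruses that DNA methylation also silences, made up 10.6%, 12.7% and 18.4% of repeat counts in the Mutant libraries, against 0.8002%, 0.991% and 15.0% in Control 1, Control 2 and the library labelled Control 3. That library thus lay within the Mutant range for IAP, against its label. Total repeat counts were 1913518 to 2239353 per Mutant library and 1794698 to 2245124 per Control library. Results are given with and without the library labelled Control 3. Without it, edgeR called 73 of 994 subfamilies (7.34%), 69 higher and 4 lower in Mutant, and still 0 of 6 L1Md subfamilies.

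L1Md_A, one of the young subfamilies, had 1848, 1810 and 1798 CPM (repeat counts scaled to library size with TMM factors) in the Mutant libraries, against 1917, 1865 and 1746 CPM in the Control libraries. The Mutant values fell inside the range of the Control values, whose lowest was the library labelled Control 3, and below those of Control 1 and Control 2. The means were 1818 ± 26.2 CPM in Mutant and 1843 ± 87.7 CPM in Control (SD, n = 3 each). On the log2 scale this was a fold change of −0.02 (SE 0.05, 95% interval −0.12 to 0.09; edgeR adjusted p = 0.877). As a percentage that interval spans −8.29% to 6.18%. Leaving the library labelled Control 3 out gave −0.06 (SE 0.04; edgeR adjusted p = 0.523).

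L1Md_T, the young subfamily with the most counts, had 3717, 3742 and 3580 CPM in the Mutant libraries, against 3507, 3629 and 3427 CPM in the Control libraries. Mutant 1 and Mutant 2 stood above all Control libraries, and Mutant 3 stood below Control 2, so the groups overlapped. As a log2 fold change this was 0.06 (SE 0.04, 95% interval −0.02 to 0.15; edgeR adjusted p = 0.537), a difference bounded between −1.58% and 10.97%. Leaving out the library labelled Control 3 gave 0.04 (SE 0.04; edgeR adjusted p = 0.588).

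L1Md_Gf, a young subfamily with few counts, had 153, 146 and 165 counts in the Mutant libraries, against 195, 229 and 133 counts in the Control libraries. These came to 80.2, 81.1 and 83.9 CPM in Mutant, against 94.9, 88.9 and 70.6 CPM in Control. The library labelled Control 3 was the lowest of all 6, and Control 1 and Control 2 were the highest. The Control values had a coefficient of variation of 14.9%, against 2.38% in Mutant, and counting error alone would give about 7.34% in Control and 8.04% in Mutant. The log2 fold change with all libraries was −0.06 (SE 0.12; edgeR adjusted p = 0.861), and −0.16 (SE 0.10; edgeR adjusted p = 0.415) without the library labelled Control 3. At this depth the interval for L1Md_Gf, −20.6% to 16.3%, was the widest of the 6.

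The F subfamilies gave the same picture. L1Md_F, with 442 to 461 counts per Mutant library and 407 to 600 per Control library, had 232, 246 and 234 CPM in Mutant, against 212, 233 and 216 CPM in Control. The overlap came from Mutant 1, which stood just below Control 2. Its log2 fold change of 0.11 (SE 0.06, 95% interval −0.03 to 0.24; edgeR adjusted p = 0.505) was the largest of the 6 with all libraries. It became 0.09 (SE 0.07; edgeR adjusted p = 0.537) without the library labelled Control 3, smaller in size than the −0.16 of L1Md_Gf.

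L1Md_F2, which took the most counts of the 6 rows, had 6372, 6056 and 6127 CPM in the Mutant libraries, against 6300.5, 6285 and 5994 CPM in the Control libraries. Means of 6185 ± 165 CPM in Mutant and 6193 ± 173 CPM in Control (SD, n = 3 each) gave a log2 fold change of −0.00 (SE 0.04, 95% interval −0.08 to 0.08; edgeR adjusted p = 0.985). L1Md_F3 had 1329.9, 1312 and 1314 CPM in Mutant, against 1347, 1285 and 1262 CPM in Control, with a log2 fold change of 0.02 (SE 0.04; edgeR adjusted p = 0.851). For all 6 subfamilies the CPM of both groups overlapped, so 0 of 6 were apart, beside 17.8% of the repeat subfamilies tested. With 6 members, a count of 0 cannot be told from that share. For L1Md_A and L1Md_Gf the overlap rested on the library labelled Control 3. Without it, both lay lower in all Mutant libraries than in Control 1 and Control 2, so that 2 of 6 subfamilies were apart, beside 39.5% of the repeat subfamilies tested. That count was added after the data were seen.

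**Figure D1:**
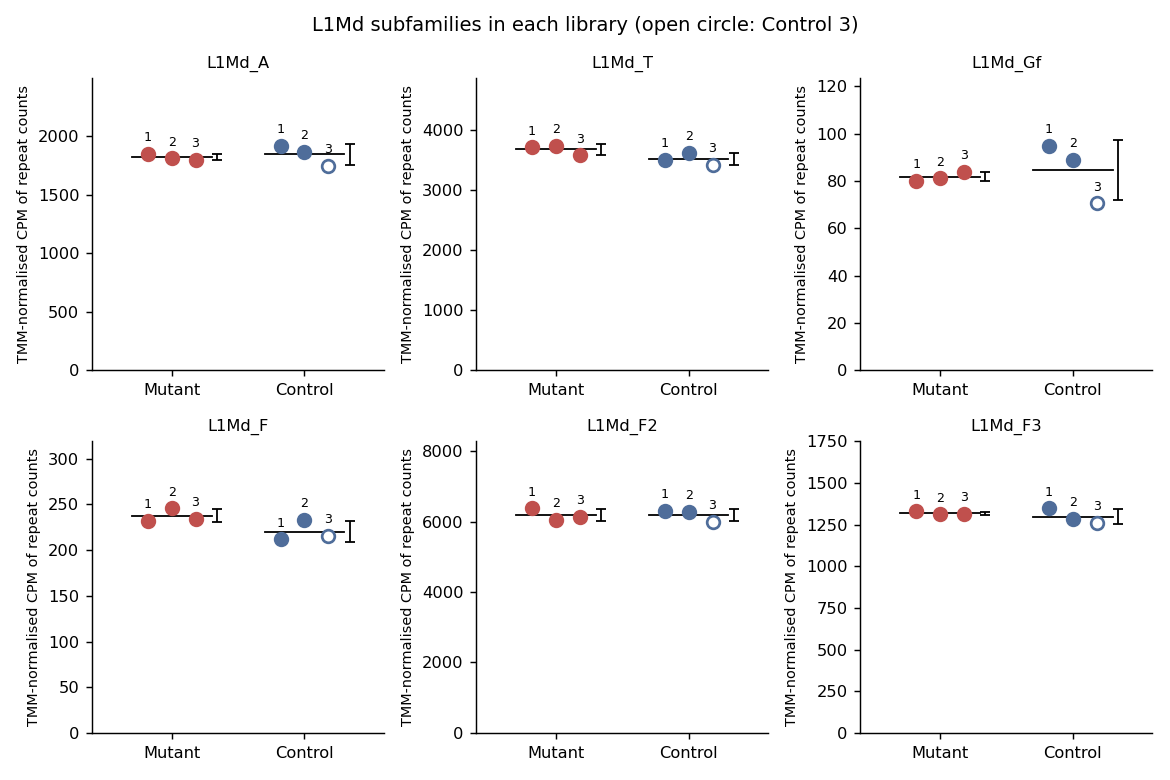
TMM-normalised CPM of repeat counts for each L1Md subfamily, 1 point per library, with Mutant left of Control; lines are group means, bars their SD (n = 3 each), and the open circle is the library labelled Control 3. In every panel the groups overlap, for L1Md_A and L1Md_Gf through the open circle alone, and L1Md_Gf shows the widest Control spread relative to its mean, 70.6 to 94.9 CPM.

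The sum of all 6 subfamilies was 13579, 13246 and 13137 CPM in the Mutant libraries, against 13379, 13386 and 12716 CPM in the Control libraries. Values averaging 13321 ± 230 CPM in Mutant and 13160 ± 385 CPM in Control (SD, n = 3 each) overlapped, and the means of the log2 values differed by 0.02, or 1.24% (exact two-sided permutation test, p = 0.7). A design of 3 libraries against 3 cannot give a p under 0.1. Without the library labelled Control 3 the log2 difference turned to −0.0068, or −0.47% (exact two-sided permutation test, p = 0.8).

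The comparison depends on how libraries are scaled. With TMM factors the median log2 fold change over the 984 subfamilies was −0.00. As plain shares of all repeat counts, the summed L1Md counts were 1.35% (95% Wilson interval 1.34 to 1.37), 1.23% (1.22 to 1.25) and 1.15% (1.14 to 1.17) in the Mutant libraries. They were 1.53% (1.51 to 1.55), 1.54% (1.52 to 1.55) and 1.19% (1.17 to 1.20) in Control 1, Control 2 and the library labelled Control 3. The Mutant libraries and the library labelled Control 3 were thus the lower ones. The log2 difference was −0.18 (exact two-sided permutation test, p = 0.3), and dropping the library labelled Control 3 the groups lay apart by −0.30, or −18.9%, with p = 0.2, the smallest that 3 against 2 allows by the exact test.

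Older LINE-1 split the libraries the same way, with Control 1 and Control 2 above the other 4. It took 8.93%, 8.14% and 7.63% of repeat counts in the Mutant libraries, against 10.4%, 10.5% and 8.23% in the Control libraries. IAP counts are part of the same total and were high in the 4 libraries in which LINE-1 shares were low. With IAP rows taken out of the total, the log2 difference of the L1Md share was −0.05 (exact two-sided permutation test, p = 0.4). Without the library labelled Control 3 as well, it was −0.10, or −6.56%, with the groups apart (exact two-sided permutation test, p = 0.2, the smallest possible).

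**Figure D2:**
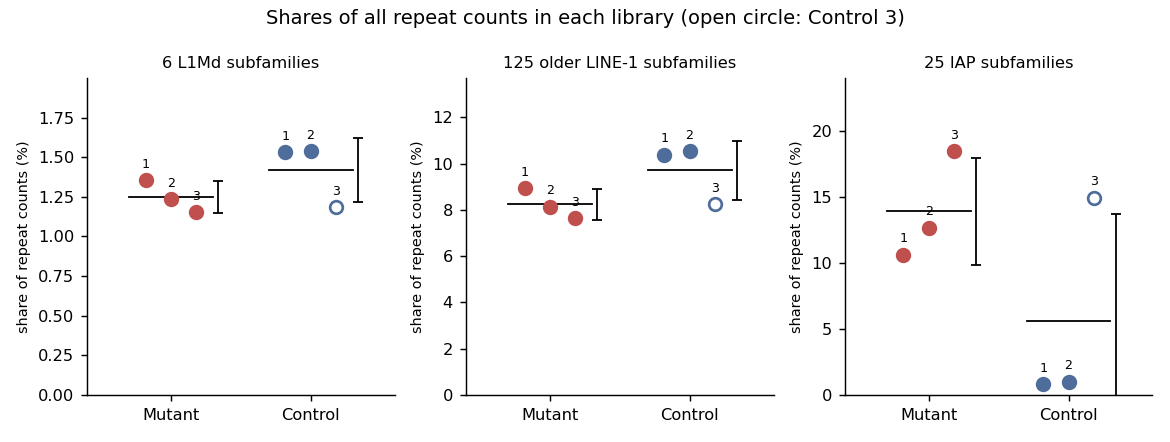
Share of all repeat counts (%) taken by the summed L1Md, older LINE-1 and IAP rows in each library, with Mutant left of Control, lines at the means and bars for the SD (n = 3 each, cut at 0). The library labelled Control 3 (open circle) has 15.0% IAP and 1.19% L1Md counts, beside Mutant values of 10.6% to 18.4% and 1.15% to 1.35%.

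With edgeR scaled by total counts only and without the library labelled Control 3, 5 of 6 L1Md subfamilies were lower in Mutant, beside 401 of 994 repeat subfamilies (40.3%). The log2 fold changes were −0.35 for L1Md_A (edgeR adjusted p = 0.00303), −0.25 for L1Md_T (edgeR adjusted p = 0.0264) and −0.46 for L1Md_Gf (edgeR adjusted p = 0.00549). L1Md_F, at −0.20, did not pass (edgeR adjusted p = 0.1). This scaling moved the median of all repeats to −0.29, and the L1Md median lay −0.01 from it, with L1Md_Gf below and L1Md_F above. With all 6 libraries the same scaling called 0 of 6 L1Md subfamilies, with a median of all repeats of −0.20.

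**Figure D3:**
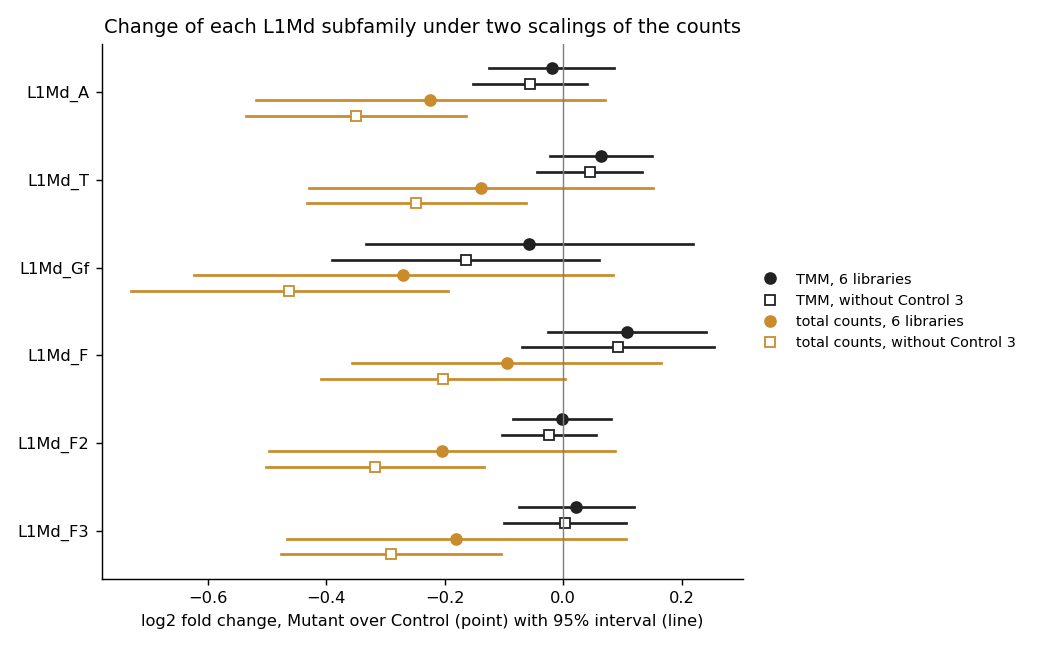
Log2 fold change of each L1Md subfamily, Mutant over Control, with 95% intervals from edgeR; black marks use TMM factors and orange marks total counts only, filled with 6 libraries and open without the library labelled Control 3. Intervals with TMM all include 0, and with total counts only those without the library labelled Control 3 lie below 0 except for L1Md_F.

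The authors' deposited repeat comparison called 0 of 6 L1Md subfamilies and 63 of 1008 subfamilies with an adjusted p (6.25%). Its log2 fold changes were −0.06 for L1Md_A (SE 0.06 and adjusted p 0.795, from the authors' deposited table) and 0.04 for L1Md_T (SE 0.06 and adjusted p 0.877, from the authors' deposited table). L1Md_Gf stood at −0.17 (SE 0.16) and L1Md_F at 0.09 (SE 0.11) in the authors' deposited table. These values are those of a fit without the library labelled Control 3. DESeq2 run on the 5 other libraries gave the authors' mean for all 1093 subfamilies compared within a relative difference of 4.70e-10, and their log2 fold changes within 0.00134. Run on all 6 libraries, it differed by up to 0.496 in relative mean and 4.25 in log2 fold change.

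The make-up of the L1Md counts varied by small amounts between libraries. L1Md_F2 took 46.9%, 45.7% and 46.6% of L1Md counts in the Mutant libraries, against 47.1%, 47.0% and 47.1% in the Control libraries. L1Md_T took 27.4%, 28.2% and 27.3% in Mutant, against 26.2%, 27.1% and 26.9% in Control. L1Md_A took 13.6%, 13.7% and 13.7% in Mutant, against 14.3%, 13.9% and 13.7% in Control. These are shares of counts, and since copy number and length of the subfamilies were not used, they do not rank the subfamilies by transcript level. A chi-square of the 6 counts per library, which would be about 1 per degree of freedom under counting error alone, was 1.19 among Mutant libraries, 1.94 among Control libraries and 2.49 between Control 1 and Control 2. Over all 6 libraries it was 51.7 on 25 degrees of freedom, or 2.07 per degree of freedom, so the make-up differed between libraries by more than counting error (chi-square test on counts, which compares the libraries and not the groups, p = 0.00130).

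Ratios within a library do not depend on its scaling. Of the 15 pairs of L1Md subfamilies, 3 had ratios that did not overlap between groups, or 9 without the library labelled Control 3, 7 without Mutant 1 and 6 without Control 2. Among 5050 pairs of older LINE-1 rows, 19% did not overlap, and 38.4% without the library labelled Control 3, so the L1Md count of 3 is near the background with all libraries, and the count of 9 is above it without that one. No such share was computed without Mutant 1 or without Control 2. The 15 pairs share their members and are not independent. Without the library labelled Control 3, every pair with L1Md_Gf lay apart, so the count of 9 leans on that member. L1Md_Gf had the fewest counts of the 6 subfamilies, 133 to 229 per library. The ratio of L1Md_T to L1Md_A counts was 2.01, 2.07 and 1.99 in the Mutant libraries, against 1.83, 1.95 and 1.96 in the Control libraries. All Mutant libraries lay above all Control libraries, by 5.84% on average. The ratio of L1Md_F to L1Md_A was 0.126, 0.136 and 0.130 in Mutant, against 0.110, 0.125 and 0.124 in Control, or 9.27% higher on average. That of L1Md_T to L1Md_F2 was 0.583, 0.618 and 0.584 in Mutant, against 0.557, 0.577 and 0.572 in Control, or 4.65% higher. Each of these 3 pairs had the smallest p the design allows (exact two-sided permutation test, p = 0.1; Benjamini-Hochberg adjusted p = 0.5 over 15 pairs), so no pair passed.

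The ratio of L1Md_Gf to L1Md_A, both young subfamilies, was 0.0434, 0.0448 and 0.0467 in Mutant, against 0.0495, 0.0476 and 0.0404 in Control. The library labelled Control 3 was the lowest, and the average difference was −1.60% (exact two-sided permutation test, p = 0.9). Without that library it was −7.44%, with the groups apart.

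L1Md counts were set against older LINE-1, whose copies are mostly truncated and no longer mobile. The summed L1Md counts were 0.152, 0.151 and 0.151 times those of older LINE-1 in the Mutant libraries, against 0.148, 0.146 and 0.144 times in the Control libraries. The groups did not overlap, and the ratio was 3.77% higher in Mutant (exact two-sided permutation test, p = 0.1, the smallest the design allows). Without the library labelled Control 3 it was 3.07% higher (exact two-sided permutation test, p = 0.2, again the smallest possible).

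The size of that difference varied with the older rows used. Against the 92 ancient L1M, L1P and HAL1 rows the ratio was 0.342, 0.347 and 0.338 in Mutant, against 0.327, 0.327 and 0.319 in Control, or 5.55% higher and apart. Against the 12 rodent L1 rows (L1_Mus, L1_Mur and like names) it was 4.09% higher and apart. Against the 21 Lx rows it was 1.44% higher, and the groups overlapped (exact two-sided permutation test, p = 0.4). The ratio of Lx to L1M, L1P and HAL1 was itself 4.05% higher in Mutant and apart, so a difference from the ancient rows was not particular to L1Md.

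Of the single subfamilies, L1Md_F and L1Md_T had ratios to older LINE-1 that did not overlap between groups, 10.6% and 7.12% higher in Mutant (exact two-sided permutation test, p = 0.1 each). That is 2 of 6 members, where 24 of 101 older LINE-1 rows with a mean of at least 100 counts were apart from the rest of older LINE-1 (23.8%), 5 higher and 19 lower. Without the library labelled Control 3, 3 of 6 members were apart, beside 40.6% of those older rows. The added one was L1Md_Gf, at −7.84%, where all libraries gave −0.405%. This count too was added after the data were seen.

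**Figure D4:**
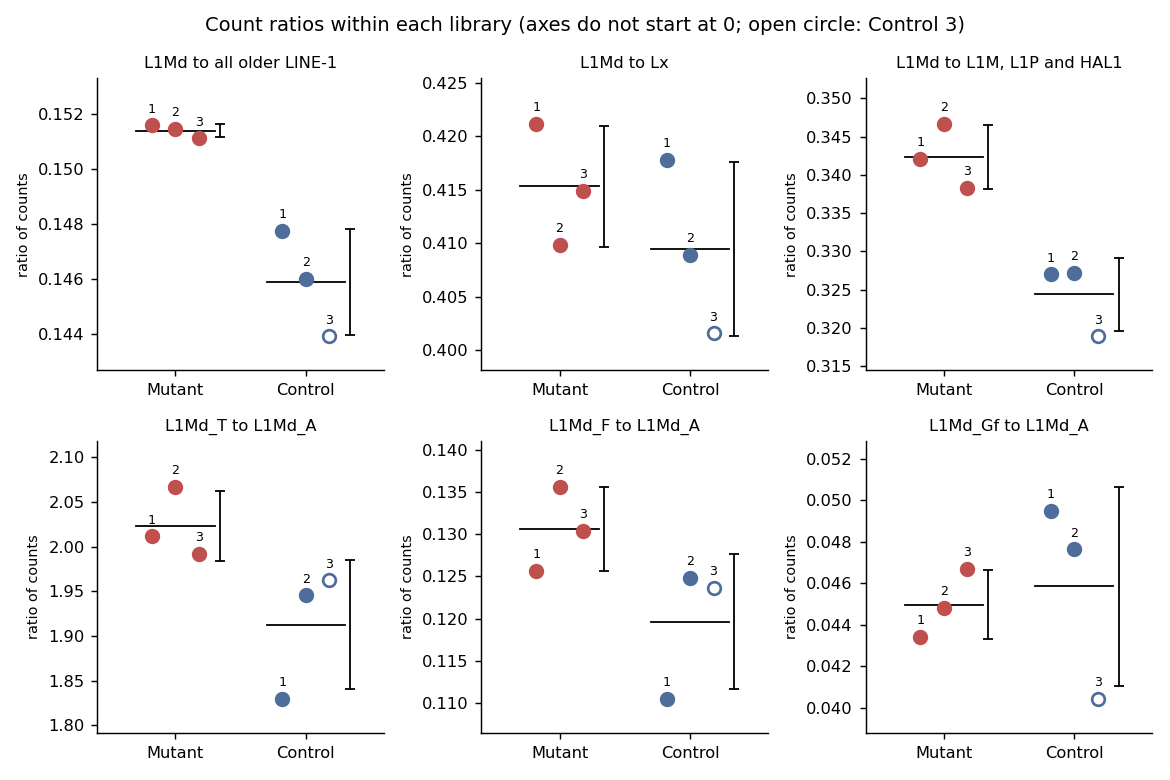
Ratios of counts within each library, with Mutant left of Control, lines at the means and bars for the SD (n = 3 each); the axes do not start at 0, and the open circle is the library labelled Control 3. L1Md to all older LINE-1 separates the groups (0.151 to 0.152 in Mutant, 0.144 to 0.148 in Control), whereas L1Md to Lx and L1Md_Gf to L1Md_A overlap.

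On the log2 scale of the TMM-based fit, the median fold change was 0.01 for the 6 L1Md rows, −0.03 for 12 rodent L1 rows, −0.02 for 21 Lx rows and −0.07 for 90 L1M, L1P and HAL1 rows tested. In edgeR 0 of 123 older LINE-1 rows tested were called with all 6 libraries, and 4 without the library labelled Control 3, where 7.34% of all repeats were called. In CPM, 36 of the 123 older rows did not overlap between groups, where 17.8% of all repeats did not. Of those 36 older rows, 30 were of the ancient L1M, L1P and HAL1 kind. The older rows with the most counts in each kind had small differences. Among rodent L1 rows, L1_Mus1 averaged 3601 ± 44.2 CPM in Mutant and 3605 ± 91.9 CPM in Control (SD, n = 3 each; log2 fold change −0.00). L1_Mus3 stood at −0.02 and L1_Mur3 at −0.10 on the log2 scale. Among Lx rows, Lx8 stood at −0.02, Lx7 at 0.09 and Lx9 at −0.10, and among ancient rows L1M4 stood at −0.09, L1M5 at −0.11 and L1MB7 at −0.09. The edgeR adjusted p of these 9 rows was between 0.408 and 0.985.

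The members varied together only in part. Over the 6 libraries, the log2 CPM of L1Md_Gf and L1Md_A had a Pearson correlation of 0.91, L1Md_T and L1Md_F one of 0.86, and L1Md_F and L1Md_A one of −0.18. Of 609 other repeats averaging at least 50 CPM, those most like the summed L1Md CPM over the same libraries were ORR1A2 (r = 0.938), RMER19C (0.928), Lx2B (0.908), L1_Mur1 (0.893) and BGLII_Mur (0.878). These points share their libraries and scaling factors, so the values are a description only.

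Genes that silence or restrict LINE-1 were read from the authors' deposited gene comparison, which gives mean TPM per group and no values per library. The targeted gene, Uhrf1 (chromosome 17, 56303321 to 56323486, GRCm38), averaged 20.4 TPM in Mutant and 118 TPM in Control in the authors' deposited table. The authors' deposited table also implies a log2 estimate, its statistic multiplied by its standard error, which for Uhrf1 was −3.12 with an SE of 0.60 and an adjusted p of 4.01e-06. Of 37 genes on the lists, 36 were in the authors' deposited table (Mael was not). Among them 9 were lower, 1 was higher and 26 did not pass. The 9 include Uhrf1, whose loss was set by the design. Over all 22631 genes, 8.11% were lower and 9.02% higher. The median deposited log2 fold change was −0.03 over the listed genes and 0.01 over all genes of the authors' deposited table. Multiplied by 3, the group means had at most 4 decimals for 99.8% of genes between 20 and 80 TPM in either group, and multiplied by 2 for 34.0% in Mutant and 33.9% in Control. A mean over 3 libraries given to 4 decimals has that form, so the gene means, unlike the repeat comparison, have the form of means over 3 Control libraries.

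The DNA methylation genes were lower for 4 of 7, the targeted Uhrf1 among them. Dnmt1, the maintenance methyltransferase, averaged 94.3 TPM in Mutant and 122 TPM in Control (log2 estimate −0.37 with SE 0.06 and adjusted p 3.20e-09, from the authors' deposited table). Hells, a chromatin remodeller needed for methylation of repeats, averaged 60.6 TPM in Mutant and 79.97 TPM in Control (log2 estimate −0.43 with SE 0.08 and adjusted p 4.44e-07, from the authors' deposited table). Dnmt3a, a de novo methyltransferase, averaged 17.3 TPM in Mutant and 19.6 TPM in Control (log2 estimate −0.28 with SE 0.10 and adjusted p 0.0476, from the authors' deposited table).

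Of the 10 heterochromatin genes, 5 were lower. Trim28, the corepressor of KRAB zinc finger proteins, averaged 292 TPM in Mutant and 360 TPM in Control (log2 estimate −0.32 with SE 0.05, from the authors' deposited table). The histone H3K9 methyltransferases Suv39h1 (45.7 TPM in Mutant and 58.2 TPM in Control) and Setdb1 (33.1 TPM in Mutant and 39.2 TPM in Control) were lower in the authors' deposited table. So were Morc2a, an ATPase that works with the HUSH silencing complex (63.5 TPM in Mutant and 77.6 TPM in Control), and the HUSH subunit Pphln1 (62.0 TPM in Mutant and 67.8 TPM in Control). The adjusted p of these 5 genes in the authors' deposited table lay between 4.61e-08 for Trim28 and 0.00303 for Pphln1.

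Of the 10 genes that act on LINE-1 RNA or cDNA, 0 passed in either direction. As examples chosen after their values were seen, the deaminase Apobec3 averaged 134 TPM in Mutant and 136 TPM in Control, and the dNTP hydrolase Samhd1 33.5 TPM in Mutant and 32.8 TPM in Control, in the authors' deposited table. The helicase Mov10 averaged 7.72 TPM in Mutant and 5.09 TPM in Control (log2 estimate 0.35 with SE 0.19 and adjusted p 0.259, from the authors' deposited table). Of 9 listed genes of the germline piRNA pathway, Piwil4, a PIWI protein, was higher, at 1.75 TPM in Mutant and 0.578 TPM in Control (log2 estimate 1.49 with SE 0.49 and adjusted p 0.0176, from the authors' deposited table).

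**Figure D5:**
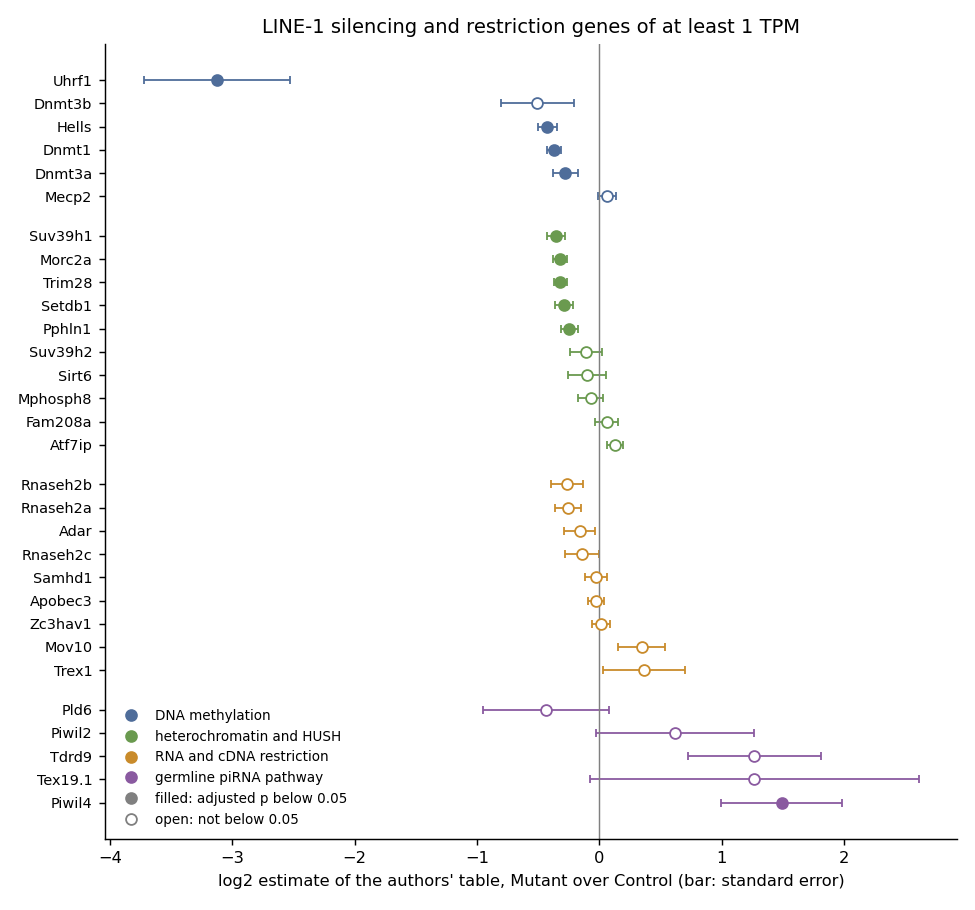
Log2 estimates of the authors' deposited gene comparison (Mutant over Control; bars are standard errors) for listed LINE-1 silencing and restriction genes averaging 1 TPM or more, coloured by list and filled where the adjusted p was below 0.05. Uhrf1 stands at −3.12, the other filled silencing genes lie between −0.43 and −0.25, and Piwil4 lies at 1.49.

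The defining markers of satellite cells and myoblasts were present in both groups. All 8 were in the authors' deposited table and summed to 2584 TPM in Mutant and 2639 TPM in Control, with 2 higher and 4 lower. Pax7, the marker of satellite cells, averaged 29.6 TPM in Mutant and 23.1 TPM in Control, and Myod1, a myogenic regulator, 914 TPM in Mutant and 1018 TPM in Control, in the authors' deposited table. Of 5 macrophage and leukocyte markers 4 were listed, with 2 higher in Mutant, and they summed to 111 TPM in Mutant and 32.1 TPM in Control. Most of that sum was Laptm5, at 84.8 TPM in Mutant and 25.1 TPM in Control, which was higher, as was Cd68. Fcer1g and Ptprc did not pass, and Ptprc averaged 0.303 TPM in Mutant and 0.381 TPM in Control. Endothelial markers summed to 3.88 TPM in Mutant and 6.95 TPM in Control (2 of 3 lower), and fibroblast markers to 45.2 TPM in Mutant and 30.1 TPM in Control (0 of 3 passed). The adipocyte (1 of 2 listed) and Schwann (2 of 2) markers stayed at or below 1.34 TPM in sum. None of the listed markers was at 0, and their part in the L1Md results was not tested.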

How the data were processed

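For 3 Mutant and 3 Control libraries, the deposited repeat table holds raw counts, 1 row a subfamily. The authors' repeat comparison holds mean normalised signal, log2 fold changes, standard errors, test statistics and p-values, per the file headers. The authors' gene table holds mean TPM, log2 ratios of mean TPM plus 1, standard errors, score statistics and p-values, and the standard errors belong to the product of statistic and standard error, called the log2 estimate. Header names of the count table stand 1 column left of the values. The submitters' processing notes name DESeq2, featureCounts 2.0.1, STAR 2.7.6a and Trim Galore 0.6.6, and the builds GRCm38 and mm10. Repeat annotation and the counting of reads that map to several places are not given in the sources used here. Near-identical L1Md copies may share reads.

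The test was edgeR 4.0.16 under R 4.3.3 (quasi-likelihood, TMM factors, filterByExpr, group as the only term, Benjamini-Hochberg, threshold 0.05), after a check on simulated counts. SEs and 95% intervals follow from the fold change and its F statistic. Shares and ratios used exact two-sided permutation tests on the log2 scale. Wilson intervals cover counting error only. Alternatives were DESeq2 1.42.0, other scaling, no filter, a replicate block and leaving out each library. Same-numbered libraries deviated together with correlations of 0.28, 0.07 and 0.27, the highest for each Mutant library, against −0.29 to 0.15 for unlike numbers. The labels do not say that a number marks a shared animal, litter or day, so numbers were not taken as pairs in the main fit. Members, lists and named rows were chosen with earlier results of these data known: all L1Md rows, the 3 older LINE-1 rows of highest mean CPM in each of 3 kinds, the 5 repeats most correlated with L1Md, and the silencing genes with an adjusted p below 0.05. Positions come from GENCODE M21. A second gene comparison with unlabelled arms was not used.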

Additional observations from a re-analysis of the deposited data

How the results depend on the processing

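The count of repeat subfamilies called, 0 in the fit reported, was 73 without the library labelled Control 3 (also 73 with factors that ignore IAP rows), 65 with DESeq2 without that library, 16 with DESeq2, 6 with total counts only and 441 with total counts only without that library. The L1Md count stayed at 0 of 6 in every fit run except the last, where it was 5. In that fit the median log2 fold change of all repeats was −0.29, with 401 subfamilies called lower in Mutant and 40 called higher. Which scaling is closer to the RNA levels was not tested. With total counts only, directions turned for L1Md_T (−0.14 with all libraries and −0.25 without the library labelled Control 3), L1Md_F (−0.10 and −0.20) and L1Md_F3 (−0.18 and −0.29). L1Md_F2 turned to 0.0020 with factors that ignore IAP rows. Leaving out 1 library at a time gave −0.0245 to 0.0150 for L1Md_F2, −0.16 to 0.0263 for L1Md_Gf, −0.0560 to 0.0101 for L1Md_A and −0.11 to 0.0348 for the log2 ratio of L1Md_Gf to L1Md_A; the cause was not tested. The summed share, −0.18 on the log2 scale, was 0.0178 on the TMM scale. The TMM factors were 0.997, 0.931 and 0.878 in the Mutant libraries. They were 1.145, 1.148 and 0.932 in Control 1, Control 2 and the library labelled Control 3, which lay within the Mutant range. Leaving out 1 library gave 3 to 9 subfamily pairs apart, 9 without the library labelled Control 3, 7 without Mutant 1 and 6 without Control 2. Of these, a background share was computed only without the library labelled Control 3. With the replicate block, edgeR called 0 repeats (154 with an unadjusted p below 0.05) and 0 L1Md subfamilies. In 8 of 15 pairs all 3 same-number differences went in one direction, where the smallest exact p is 0.25. No share over other pairs was computed for this setting, so that count has no background to be read against. Control 2 did not correlate best with its own number. The counts of L1Md_Gf, 133 to 229 per library, limit its precision.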
